A study of Mus musculus with 4 samples.

Results

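Interferon-stimulated genes were followed in primary aortic smooth muscle cells of mice whose Atg7 gene, which encodes an enzyme that autophagy needs, carried the floxed allele. The group holds 36 genes, chosen by name as genes that interferons induce. Every non-control probe whose gene name in the scanner files was one of the 36 was taken, which gave 60 of the 41174 probes. Each of the 36 genes had a probe, 20 of them 1 probe and 16 several. Of these genes, 26 passed the filter for probes well above background, as did 12250 gene names in the whole series.

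Interferons are secreted signals that cells release when they sense foreign or misplaced nucleic acid. Type I interferons act through their receptor and Janus kinases to assemble a complex with STAT2 and IRF9 that binds the interferon-stimulated response element (ISRE) and switches on antiviral genes, while interferon gamma acts mainly through gamma-activated (GAS) sites. Vascular smooth muscle cells carry receptors for both types and express many of these genes when they are exposed to interferon.

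The Atg7F/F cells carried Atg7F/F together with SM22α-Cre+, and the cells set against them were Atg7+/+ with the same SM22α-Cre+, so both groups express the recombinase. The SM22α promoter drives Cre in smooth muscle cells. All cells were labelled as strain C57LB/6, grown in medium with 10% serum and taken between passage 4 and passage 10, and no interferon treatment is named. Each genotype had 2 biological replicates. The labels do not say how many animals a replicate holds, at which passage it was harvested or the age of the mice. Each Atg7F/F extract was hybridised with the Atg7+/+ extract of the same number on 2 arrays with exchanged dyes, and these extracts are called pair 1 and pair 2 here. Ratios are log2 values of Atg7F/F over Atg7+/+, and means over the pairs are given ± SD with n = 2. Levels are log2 signals of one probe, comparable between extracts and not between genes.

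In each channel 43.3% to 45.5% of spots passed the well-above-background flag, 0 were saturated, and the 4 arrays shared 1 slide and 1 scan. By the Atg7 probe past the filter, ratios were -1.26 and -1.09 on the arrays of pair 1 and -0.96 and -1.57 on those of pair 2. The mean was -1.22 ± 0.07, so the targeted transcript was lower in Atg7F/F on every array by that probe. A second Atg7 probe, which did not pass the filter, gave 0.07 and -0.04 in pair 1 and 0.03 and -0.05 in pair 2. Which exon is floxed is not given in the labels, so either probe may lie outside the deleted part. Smooth muscle markers were measured in both genotypes, with 9 of 10 past the filter, Acta2, Tagln and Myh11 among them. Myocd, a defining factor of the lineage, did not pass and was above background in 2 of 4 Atg7F/F channels and 3 of 4 Atg7+/+ channels. In these bulk extracts fewer cells of a type and less RNA per cell cannot be told apart.

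The letters of the interferon response element were found close to the start of many of these genes. Promoters are those of the RefSeq tables on GRCm38.p6, which held an entry for 28 of the 36 genes, and the 250 bases before the start were read on both strands. The ISRE core, searched as GAAA followed after any 2 bases by another GAAA, or as TTTC in the same spacing on the other strand, was present in 12 of the 28, which is 42.9%, against 936 of 27025 genes with a promoter, or 3.46%. TTCNNNGAA, the core of the GAS site, which reads the same on both strands, was in 6 of the 28 (21.4%) and in 8.13% of all genes with a promoter. The 2 motifs were counted separately, whether or not their matches overlapped. The genes were listed as interferon-induced, so their high share is a description of the group. Below are 100 bases around the match for the 6 genes past the filter that hold the ISRE letters and differed most between the pairs. They are shown so that the same element can be seen before genes whose mean ratios went in different directions. All 6 had a higher ratio in pair 2 than in pair 1, as had 21 of the 26 genes and 51.9% of all genes. Capitals mark the ISRE matches, and each run is on the gene's own strand.
Gbp2: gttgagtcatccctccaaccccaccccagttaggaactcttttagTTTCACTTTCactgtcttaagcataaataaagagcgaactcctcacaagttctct
Isg15: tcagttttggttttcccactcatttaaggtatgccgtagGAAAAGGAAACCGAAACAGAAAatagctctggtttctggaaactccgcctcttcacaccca
Igtp: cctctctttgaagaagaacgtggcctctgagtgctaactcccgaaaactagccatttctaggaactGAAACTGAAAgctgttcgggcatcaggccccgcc
Stat2: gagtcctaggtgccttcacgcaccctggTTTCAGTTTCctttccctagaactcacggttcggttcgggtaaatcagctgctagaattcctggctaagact
Ifit3: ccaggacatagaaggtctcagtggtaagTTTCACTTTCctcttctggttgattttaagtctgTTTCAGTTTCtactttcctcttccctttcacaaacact
Irgm1: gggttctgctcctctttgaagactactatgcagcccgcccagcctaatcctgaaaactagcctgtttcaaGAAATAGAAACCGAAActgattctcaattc
The windows lie at chr3:142620559-142620658 on the plus strand for Gbp2, chr4:156200836-156200935 on the minus strand for Isg15 and chr11:58199456-58199555 on the plus strand for Igtp. Those of Stat2 and Ifit3 are at chr10:128270248-128270347 and chr19:34583345-34583444 on the plus strand, and that of Irgm1 is at chr11:48871421-48871520 on the minus strand. Isg15 holds 3 overlapping matches that begin between 78 and 66 bases before the start, and Irgm1 holds 2 overlapping ones. In Gbp2 a single match begins 59 bases before the start. Ifit3 has 2 separate matches, 156 and 122 bases before the start, and the match of Stat2 lies 222 bases before it.

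No interferon-stimulated gene passed the test between the genotypes, and the group had no common direction in the mean. At an adjusted p below 0.05, limma called 0 of the 26 genes higher and 0 lower in Atg7F/F, as it called 0% of all 12250 genes in either direction. At an unadjusted p below 0.05 it gave 0 higher and 1 lower among the 26, Bst2, against 1.35% higher and 1.65% lower among all genes. With the 4 arrays fitted and the pair as a random block, a fit that also counts agreement between technical repeats, 0 of the 26 passed, against 0.0653% of all genes called higher and 0.0163% called lower. The smallest adjusted p of a member in that limma fit was 0.262, for Bst2. With 2 pairs, an exact sign-flip test of a single gene cannot give a two-sided p below 0.5. The median of the mean ratios was 0.01 over the 26 genes and 0.00 over all genes.

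What the group showed was a difference between the pairs. Lower on both arrays of pair 1 and higher on both arrays of pair 2 were 10 of the 26 genes, against 13.9% of all genes. The 10 were Stat2, Irf7, Irf9, Ifit3, Samd9l, Usp18, Igtp, Psmb8, Psmb9 and Xaf1. The opposite order, higher in pair 1 and lower in pair 2 on both arrays, was seen for 1 of the 26, against 12.9% of all genes. This was Ifi27 by its brighter probe, and its other probe past the filter did not have that order. Higher on all 4 arrays were 4 genes, Isg15, Ifi204, Oasl2 and Psmb10, against 10.6% of all genes, and lower on all 4 were 3, Bst2, Gbp2 and Trim25, against 9.98%. For the other 8 the sign differed between the dyes in at least 1 pair, as it did for 52.7% of all genes. Of the 4 genes higher on all 4 arrays, Oasl2 passed the filter through Atg7F/F alone, the genotype where it was higher. It was above background in 2 of 4 Atg7+/+ channels. The median ratio of the 26 was -0.11 in pair 1 and 0.19 in pair 2, where all genes had 0.00 and 0.01. The ratio of pair 2 exceeded that of pair 1 by at least 0.5 log2 units for 9 of the 26, against 7.13% of all genes. It fell short of it by at least 0.5 for 2, Ifi204 and Ifi27, each by its brighter probe, against 5.49%. Whatever the size, pair 2 had the higher ratio for 21 of the 26, against 51.9% of all genes. With 1 pair on each side, this is a comparison of 2 pairs of extracts and has no replicate check.

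**Figure D1:**
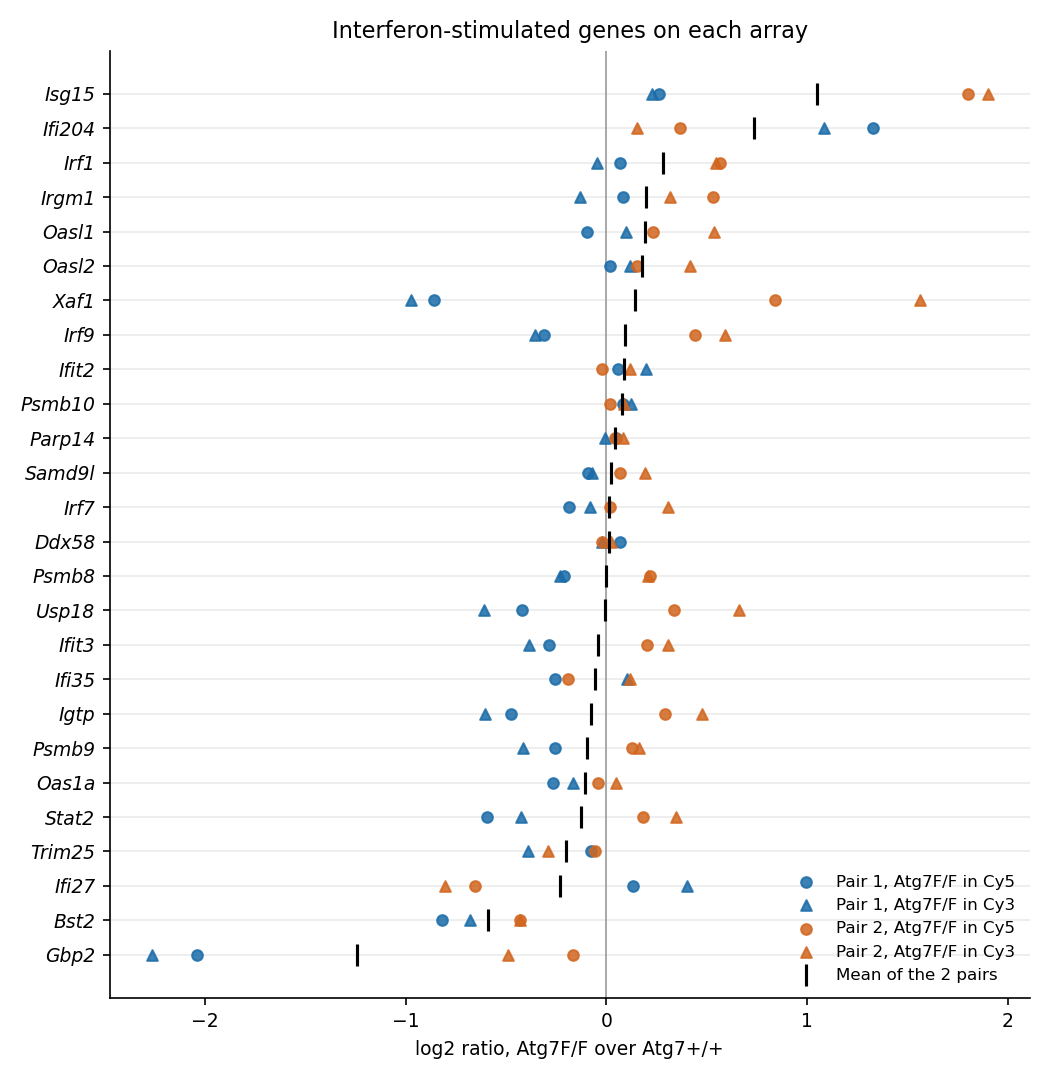
Log2 ratio of Atg7F/F over Atg7+/+ (horizontal axis) for the 26 interferon-stimulated genes past the filter, one gene per line, with circles for arrays on which Atg7F/F was labelled with Cy5, triangles for Cy3, blue for pair 1, orange for pair 2 and a black bar for the mean. For 10 genes both blue symbols lie below 0 and both orange ones above it, as for Xaf1 at -0.86 and -0.97 in pair 1 and 0.84 and 1.56 in pair 2, while Gbp2 and Bst2 lie below 0 and Isg15 and Ifi204 above it on all 4 arrays.

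The levels were then compared across the 4 extracts. Of the 26 genes, 14 had their highest level in the Atg7F/F extract of pair 2, against 34.2% of all genes, and 13 had their lowest level in the Atg7F/F extract of pair 1, against 22.4%. Within a gene, the level of pair 2 minus that of pair 1 had a median over the 26 of 0.34 between the Atg7F/F extracts and of -0.02 between the Atg7+/+ extracts, where the median over all genes was 0.01 for both. The Atg7F/F extract of pair 2 exceeded that of pair 1 by at least 0.5 log2 units for 10 of the 26, against 5.78% of all genes. It lay as far below it for 1, Ifi27 by its brighter probe, against 4.32%. Among the Atg7+/+ extracts, pair 2 lay below pair 1 by at least 0.5 for 5 of the 26, against 4.16%, the 5 being Gbp2, Usp18, Irgm1, Isg15 and Xaf1, and as far above it for 1, Ifi204, against 3.4%. Levels of extracts on different arrays rest on the scaling between arrays, which the ratios do not use.

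**Figure D2:**
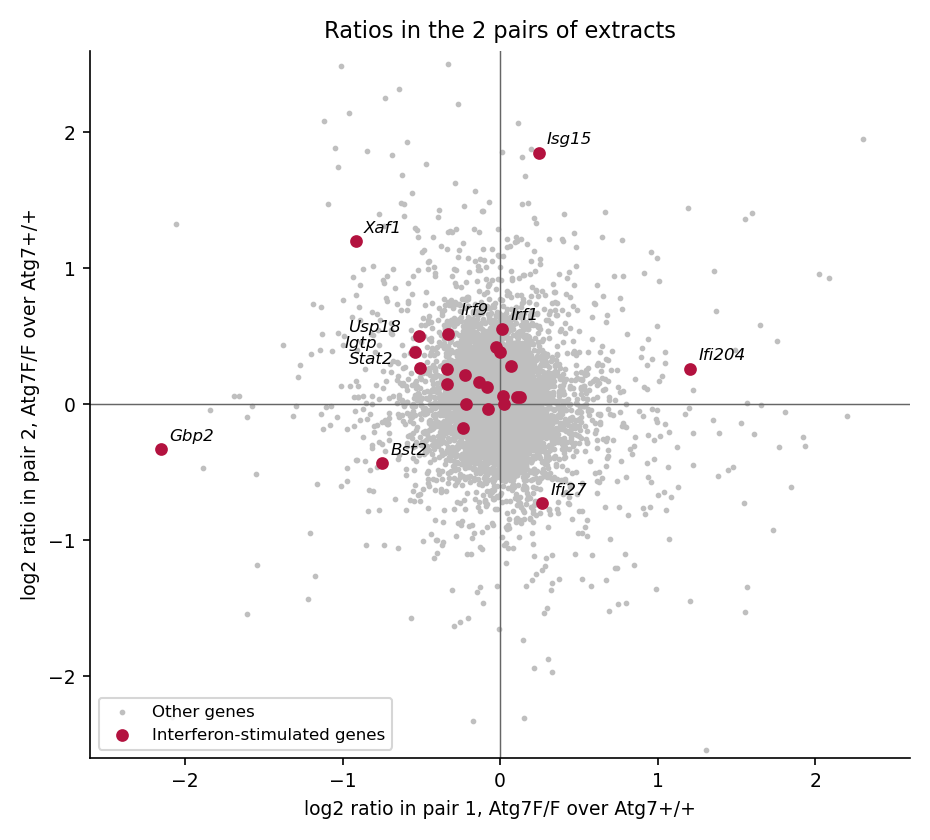
Log2 ratio in pair 1 (horizontal axis) against that in pair 2 (vertical axis), both Atg7F/F over Atg7+/+, with 26 interferon-stimulated genes in red over the other genes tested in grey; 15 other genes lie outside the axes. Of the red points, 16 lie left of 0 and 21 lie above 0, where 49.9% and 51.2% of all genes do, and Isg15, Xaf1, Gbp2 and Ifi204 stand farthest out.

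Among the transcription factors of the interferon response, STAT2 and IRF9 belong to the DNA-binding complex of the type I response, IRF7 amplifies the production of type I interferon, and IRF1 acts downstream of interferon gamma. Stat2 had levels of 7.39 and 8.15 in the Atg7F/F extracts of pairs 1 and 2, against 7.90 and 7.89 in the Atg7+/+ extracts. Its ratios were -0.51 and 0.26, and the Atg7+/+ levels lay between those of the Atg7F/F extracts. Irf9 had 7.63 and 8.27 in Atg7F/F, against 7.96 and 7.75 in Atg7+/+, with ratios of -0.33 and 0.52. Irf7 was at 6.72 and 6.89 in Atg7F/F, against 6.85 and 6.73 in Atg7+/+, with ratios of -0.13 and 0.16. At these dim levels the offset shrinks ratios, and the array ratios of Irf7 in pair 2 were 0.02 and 0.30. All of these factors had a negative ratio in pair 1 and a positive one in pair 2. Irf1 had array ratios of 0.07 and -0.05 in pair 1 and 0.57 and 0.55 in pair 2, from levels of 8.57 and 9.22 in Atg7F/F, against 8.56 and 8.67 in Atg7+/+. Its mean was 0.28 ± 0.39, and the Atg7F/F extract of pair 2 stood above the other 3 extracts, which were close together. The dimmer probe of Irf1 gave 0.08 in pair 1 and 0.09 in pair 2, without that difference. Its levels were 6.59 and 6.63 in Atg7F/F, against 6.51 and 6.54 in Atg7+/+, where the offset shrinks ratios. It was above background in 3 of 4 Atg7+/+ channels. All 4 factors, Irf1 included, were highest in the Atg7F/F extract of pair 2, as were 34.2% of all genes.

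Isg15, a ubiquitin-like protein that is attached to other proteins during antiviral responses, had the highest mean ratio of the 26 genes. Its levels in Atg7F/F were 9.80 (pair 1) and 10.88 (pair 2), against 9.56 and 9.03 in Atg7+/+. Both Atg7F/F extracts lay above both Atg7+/+ extracts, which holds for 3 of the 26 genes and 11.5% of all genes. The array ratios were 0.26 and 0.23 in pair 1 and 1.80 and 1.90 in pair 2. Their mean was 1.05 ± 1.14, or 2.07-fold, with a limma adjusted p of 1.00 and an unadjusted p of 0.102. Most of that size came from pair 2, and the SD exceeded the mean. It was the single one of the 26 genes at least 2-fold higher in the mean, against 0.196% of all genes. Usp18, the protease that removes ISG15 from proteins and also restrains the type I receptor, had array ratios of -0.42 and -0.61 in pair 1 and 0.34 and 0.66 in pair 2. Its levels were 7.30 and 7.66 in Atg7F/F, against 7.81 and 7.16 in Atg7+/+, and the mean of -0.01 ± 0.72 had no stable sign under other processing. Trim25, a ubiquitin ligase that activates the RNA sensor RIG-I, had ratios of -0.23 and -0.17, from 9.59 and 9.90 in Atg7F/F, against 9.82 and 10.08 in Atg7+/+. The dimmer Trim25 probe gave -0.29 and 0.18, so the sign in pair 2 depended on the probe. Levels of that probe were 6.65 and 6.84 in Atg7F/F, against 6.93 and 6.66 in Atg7+/+, where the offset shrinks ratios.

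Gbp2, a guanylate-binding GTPase that attacks the vacuoles and membranes of intracellular pathogens, had the lowest mean ratio. Its levels in Atg7F/F were 9.52 and 10.28, against 11.67 and 10.61 in the Atg7+/+ extracts, so both Atg7F/F extracts lay below both Atg7+/+ extracts. That holds for 2 of the 26 genes, Gbp2 and Bst2, and for 10.2% of all genes. The array ratios were -2.04 and -2.26 in pair 1 and -0.17 and -0.49 in pair 2, and the mean was -1.24 ± 1.29, or 2.36-fold lower, with an unadjusted limma p of 0.0920. Pair 1 carried most of it. Gbp2 was the single one of the 26 at least 2-fold lower in the mean, against 0.131% of all genes. Igtp, an immunity-related GTPase that guards vacuole membranes, had ratios of -0.54 and 0.38, from 7.52 and 8.04 in Atg7F/F, against 8.06 and 7.66 in Atg7+/+. Irgm1, a regulator of that GTPase family with a known link to autophagy in mice, had -0.02 and 0.42, from 9.87 and 9.71 in Atg7F/F, against 9.89 and 9.28 in Atg7+/+. Its second probe past the filter gave -0.01 and 0.37, close to the first. Gbp2, Igtp and Irgm1 shared a higher ratio in pair 2 than in pair 1.

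Bst2, or tetherin, which holds budding virus particles at the cell surface, had the smallest SD among the 6 genes of largest mean ratio. It had levels of 10.90 and 11.07 in Atg7F/F, against 11.65 and 11.50 in Atg7+/+. The array ratios were -0.82 and -0.68 in pair 1 and -0.43 and -0.43 in pair 2, with a mean of -0.59 ± 0.22, which is 1.51-fold lower. The limma interval at 95% ran from -0.97 to -0.21, the unadjusted p was 0.0151 and the adjusted p was 1.00. Among the ISRE holders, Isg15 and Bst2 thus had ratios of opposite sign on every array. Each of these 2 genes was read by a single probe, and the 60 bases of the Bst2 probe are shown because its ratio was negative on every array; it lies at chr8:74058603-74058662 of mm9 on the minus strand.
Bst2 probe: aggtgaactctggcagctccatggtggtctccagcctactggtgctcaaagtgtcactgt
Samd9l, an antiviral protein that lowers translation, had ratios of -0.08 and 0.13, from 6.76 and 6.83 in Atg7F/F, against 6.84 and 6.69 in Atg7+/+. Samd9l was dim, so the offset shrinks its ratios.

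**Figure D3:**
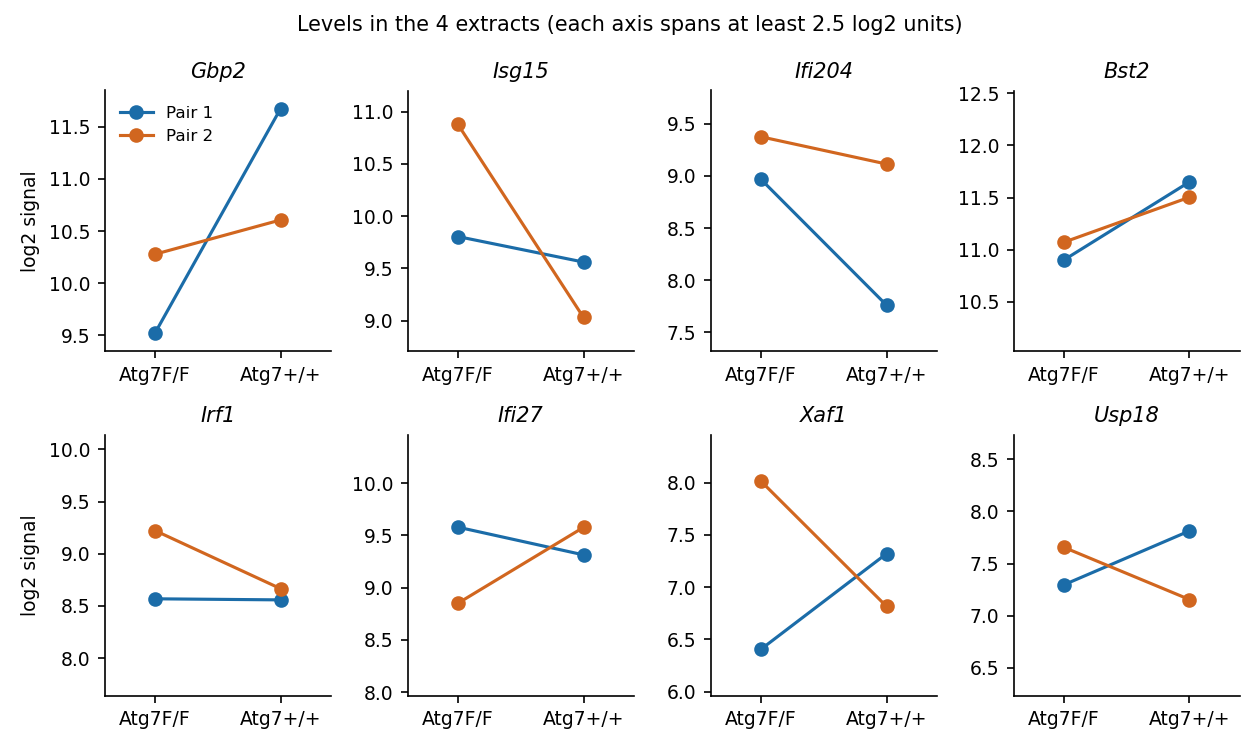
Log2 signal (vertical axis) in each extract for the 8 genes with the largest mean ratios or the largest differences between the pairs, with Atg7F/F left of Atg7+/+ and a line joining the extracts of pair 1 (blue) and of pair 2 (orange). The lines of Xaf1 and Usp18 cross, with Xaf1 at 6.40 and 8.02 in Atg7F/F and 7.32 and 6.82 in Atg7+/+, while both lines of Bst2 and Gbp2 lead to higher Atg7+/+ levels.

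Xaf1, a protein that binds the apoptosis inhibitor XIAP, differed most between the pairs. Its array ratios were -0.86 and -0.97 in pair 1 and 0.84 and 1.56 in pair 2. The levels were 6.40 and 8.02 in Atg7F/F, against 7.32 and 6.82 in Atg7+/+, so the Atg7F/F extracts held both the lowest and the highest value. The mean of 0.14 ± 1.50 is the average of 2 ratios of opposite sign. The Atg7F/F level of pair 1 was dim, where the offset shrinks ratios, and without an offset the mean was -0.080. Ifi27 ran the other way. The array ratios of its brighter probe were 0.13 and 0.40 in pair 1 and -0.65 and -0.80 in pair 2, from levels of 9.58 and 8.85 in Atg7F/F, against 9.31 and 9.58 in Atg7+/+. The accessions of this probe and of the dimmer one belong to Ifi27l2a in RefSeq, a member of the same family. The dimmer probe gave 0.04 and 0.27, from 7.12 and 7.72 in Atg7F/F, against 7.08 and 7.45 in Atg7+/+. The 2 probes thus disagreed in pair 2 and between the Atg7F/F extracts, and the direction of this gene is uncertain. Ifi204, a mouse PYHIN protein of the family that senses DNA, had array ratios of 1.33 and 1.08 in pair 1 and 0.37 and 0.15 in pair 2. Its levels were 8.97 and 9.37 in Atg7F/F, against 7.76 and 9.11 in Atg7+/+, and the low Atg7+/+ extract of pair 1 stood apart from the other 3. The mean was 0.73 ± 0.67, and the second probe past the filter gave 0.63 and 0.19 with a mean of 0.41. PYHIN, GBP and OAS genes have near relatives that a probe may also bind, so values of single members are uncertain.

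**Figure D4:**
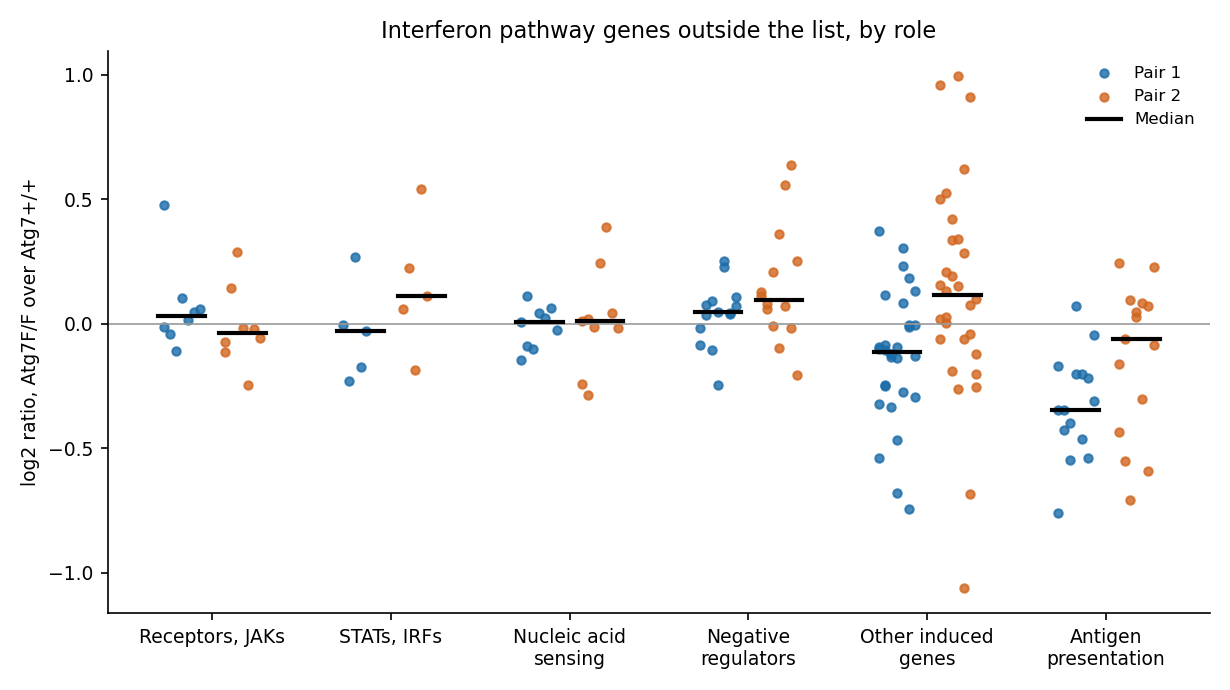
Log2 ratio of Atg7F/F over Atg7+/+ (vertical axis) for genes of the interferon pathway outside the 36, by role (horizontal axis), with a point for each gene past the filter in pair 1 (blue) and in pair 2 (orange) and a black bar for the median. The median of the other induced genes was -0.11 in pair 1 and 0.12 in pair 2, and that of the antigen presentation genes was -0.35 and -0.06.

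The immunoproteasome subunits, which replace constitutive subunits of the proteasome and shape peptides for MHC class I, had small ratios. Psmb8 had -0.22 and 0.21, from levels of 7.52 and 8.45 in Atg7F/F, against 7.74 and 8.24 in Atg7+/+, and its second probe gave -0.27 and 0.13. Psmb9 had -0.34 and 0.15, from 7.11 and 7.55 in Atg7F/F, against 7.45 and 7.40 in Atg7+/+. Psmb10 had 0.11 and 0.05, from 11.54 and 11.82 in Atg7F/F, against 11.43 and 11.77 in Atg7+/+. Psmb8 and Psmb9 thus had the order of Stat2, Irf7 and Irf9, and Psmb10 did not. All of these subunits were highest in the Atg7F/F extract of pair 2, as were 34.2% of all genes. Psmb8 and Psmb10 were also higher in pair 2 than in pair 1 in Atg7+/+, by 0.49 and 0.34. Of the constitutive partners, Psmb5 had a mean of 0.11 ± 0.17, Psmb6 of 0.16 ± 0.02 and Psmb7 of -0.22 ± 0.40.

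The classical antiviral effectors were mostly near the background of the array. IFIT proteins bind foreign RNA and block its translation. Ifit3 had ratios of -0.34 and 0.26, from 7.66 and 8.23 in Atg7F/F, against 7.99 and 7.97 in Atg7+/+. Ifit2 had 0.13 and 0.05, from 6.64 and 6.62 in Atg7F/F, against 6.51 and 6.57 in Atg7+/+. The oligoadenylate synthetase family includes the enzymes that make the messenger for RNase L, and its members were dim here. Oas1a had -0.22 and 0.00, from 6.44 and 6.64 in Atg7F/F, against 6.66 and 6.63 in Atg7+/+, and was above background in 2 of 4 Atg7F/F channels. Oasl1, which in mice restrains translation of Irf7, had 0.00 and 0.38, from 6.54 and 7.05 in Atg7F/F, against 6.54 and 6.67 in Atg7+/+. Oasl2 had 0.07 and 0.28, from 6.55 and 6.85 in Atg7F/F, against 6.48 and 6.57 in Atg7+/+, and was above background in 2 of 4 Atg7+/+ channels. For these 3 genes and Ifit2 an added offset pulls the ratios towards 0. The array ratios of Ifit2 in pair 2 were -0.02 and 0.12, so its sign there followed the dye.

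Ddx58, which encodes the RNA sensor RIG-I, was measured in every channel and had ratios of 0.02 and 0.00, from 7.49 and 7.32 in Atg7F/F, against 7.47 and 7.32 in Atg7+/+. Its limma interval at 95% ran from -0.25 to 0.27. The second probe past the filter gave -0.03 and 0.07. Parp14, a mono-ADP-ribosyltransferase, had 0.02 and 0.06, from 6.58 and 6.63 in Atg7F/F, against 6.56 and 6.57 in Atg7+/+. Ifi35, a partner of NMI, had -0.07 and -0.04, from 10.42 and 10.58 in Atg7F/F, against 10.49 and 10.61 in Atg7+/+, and its sign followed the dye in both pairs. For these 3 genes the pairs differed by at most 0.04 log2 units. Parp14 was dim, so the added offset pulls its ratios towards 0.

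The remaining 10 of the 36 did not pass the filter. Ifih1, Ifit1, Mx1, Gbp3 and Ifi44 were well above background in 0 of 4 channels of either genotype by every probe. Mx1 is the antiviral GTPase that many laboratory strains carry in a defective form, and Ifih1 encodes the RNA sensor MDA5. Dhx58 was above background in 3 Atg7F/F channels and 1 Atg7+/+ channel, Rsad2, which encodes viperin, in 2 and 1, and Ifi203 in 3 and 2. Iigp1 was above it in 2 channels of each genotype and Mx2 in 1 of each. No ratio is given for them, since a probe near background on these arrays has only a bound. The filter keeps a gene that is bright in 1 genotype alone, so the 26 are the measurable genes and not a sample of all 36.

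Upstream of these genes, the interferons themselves were not measured above background. Of 10 interferon genes with a probe, 0 passed the filter, Ifnb1 and Ifng were above background in 0 of 4 channels of either genotype, and Ifna13 in 2 of each. Receptors and Janus kinases had 8 of 9 genes past the filter and medians of 0.03 in pair 1 and -0.04 in pair 2, with Ifnar1, a chain of the type I receptor, at 0.48 and -0.11. Ifngr1, a chain of the interferon gamma receptor, had -0.11 and 0.29, the kinase Tyk2 -0.01 and -0.07, and Il10rb, a chain shared with the receptor of type III interferon, 0.01 and -0.25. Of these 8 genes, 1 was lower on both arrays of pair 1 and higher on both of pair 2, and 1 the reverse, against 13.9% and 12.9% of all genes. Among nucleic acid sensors and their adaptors 9 of 14 passed, with medians of 0.01 in both pairs. Tmem173, which encodes STING, had -0.14 and 0.01, and the kinase Tbk1 0.02 and 0.39. Myd88, an adaptor of Toll-like receptors, had 0.04 and 0.25, Traf3 0.11 and -0.29, and Mavs, the RIG-I adaptor listed under an older name, 0.01 and -0.24.

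Among the STAT and IRF factors outside the 36, Irf3, which acts before interferon is made, had -0.23 and 0.22. Stat3 had -0.03 and 0.11, and Irf2 0.00 and 0.06. Irf5, named here outside the naming rule, ran the other way on both arrays of each pair, with 0.27 and -0.19. Negative regulators had 14 of 14 genes past the filter, of which 3 were higher and 1 lower on all 4 arrays, against 10.6% and 9.98% of all genes. Socs1, an inhibitor of Janus kinases that interferon induces, had levels of 8.51 and 8.79 in Atg7F/F, against 8.25 and 8.24 in Atg7+/+, with a mean of 0.41 ± 0.21. Both Atg7F/F levels of Socs1 lay above both Atg7+/+ levels. Socs3, a related inhibitor, had 0.04 and 0.64. Samhd1, which depletes nucleotides, had -0.25 and -0.10, and Rnaseh2a, a subunit of the nuclease RNase H2, had 0.07 and -0.21.

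The order was also counted among induced genes outside the 36. Of 60 such genes with a probe, 30 passed the filter, and 11 of these were lower on both arrays of pair 1 and higher on both of pair 2, against 13.9% of all genes. Another 2 had the reverse order, against 12.9%, and 9 had signs that differed between the dyes, against 52.7%. The medians of the 30 were -0.11 in pair 1 and 0.12 in pair 2. Irgm2, a GTPase of the Igtp family listed under the older name Iigp2, had -0.68 and 0.99, from 7.59 and 8.64 in Atg7F/F, against 8.28 and 7.64 in Atg7+/+. Lgals3bp, a secreted glycoprotein that binds galectins, had -0.74 and 0.91, and Rtp4, a receptor-transporting protein, -0.32 and 0.50; these 3 were chosen after their values were seen. The highest means were those of Ccl5, a chemokine for T cells, at 0.67 ± 0.41, and of the exonuclease gene Isg20 at 0.46 ± 0.23. The lowest were Gvin1, a very large inducible GTPase, at -0.49 ± 0.81, and Eif2ak2, which encodes the RNA-activated kinase PKR, at -0.36 ± 0.15. None of them passed limma's adjusted test. Antigen presentation genes had 15 of 19 with a probe past the filter, of which 7 were lower and 0 higher on all 4 arrays, against 9.98% and 10.6% of all genes, with H2-D1 at -0.63 ± 0.12 and B2m, the light chain of MHC class I, at -0.60 ± 0.23. The highest of that set were H2-Eb1 at 0.05 ± 0.03 and Tapbp at -0.04 ± 0.38.

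Markers of some other cell types differed between the pairs as well. Adventitial fibroblast markers had 8 of 8 genes past the filter, 5 of them lower on both arrays of pair 1 and higher on both of pair 2, against 13.9% of all genes, and medians of -0.35 in pair 1 and 0.52 in pair 2. Within these genes, the level of pair 2 minus that of pair 1 had a median of 0.08 between the Atg7F/F extracts and of -0.85 between the Atg7+/+ extracts. Endothelial markers had 10 of 10 past the filter, of which 9 were lower in Atg7F/F on all 4 arrays, against 9.98% of all genes, with medians of -0.17 and -0.51. The order of the fibroblast markers was seen for 0 of the 9 smooth muscle markers past the filter, against 13.9% of all genes. The reverse order was seen for 2, Cnn1 and Des, against 12.9%. The medians of the 9 were -0.16 in pair 1 and -0.17 in pair 2. Macrophage and leukocyte markers had 5 of 10 past the filter, Csf1r, Lyz2, Fcer1g, Cd14 and Cd68. Tyrobp was above background in 3 of 4 channels of each genotype. Ptprc, Emr1, Itgam and Cd52 were above background in 0 of 4 channels of either genotype. The medians of the 5 that passed were -0.04 in pair 1 and -0.01 in pair 2, and 1 of them, Lyz2, had the pair order, with -0.50 and 0.58. Among dendritic cell markers 2 of 7 passed, Zbtb46 and Ly6d, with means of 0.10 and 0.07. Bst1 was above background in 2 of 4 channels of each genotype and Xcr1 in 1 Atg7+/+ channel alone. Siglech, Flt3 and Itgax were above it in 0 of 4 channels of either genotype. Of the lymphocyte and NK cell markers 2 of 9 passed, Cd3e and Nkg7, with means of 0.04 and -0.08. The part of fibroblast or endothelial cells in the ratios above was not tested.

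The ISRE letters stood before genes with and without the pair order. They were present in 3 of the 9 such genes with a promoter entry (33.3%), Stat2, Ifit3 and Igtp, and in 5 of the 13 other genes past the filter (38.5%), Isg15, Gbp2, Irgm1, Bst2 and Oas1a. All of the holders named here had a higher ratio in pair 2 than in pair 1, as had 21 of the 26 genes and 51.9% of all genes. A match is a stretch of letters and not a measured binding site.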

How the data were processed

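The scanner files of the 4 arrays, as deposited, give for each spot and dye a raw mean intensity and the median intensity of the background around it, per the file headers. The authors used Agilent Feature Extraction, version 10.1.1.1, as the submitters' processing notes name it. The dye of each genotype came from the labels. The authors' deposited table of log2 values equals the log2 ratio of the software's processed signals, Atg7F/F over Atg7+/+, within 0.001 for 100% of probes. Its column medians were 0.199, -0.094, 0.081 and -0.037, so it is not centred.

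Here, intensities were corrected with normexp (offset 50, which shrinks ratios of dim spots) in limma 3.58.1 with R 4.3.3 and then each array by loess, in which control spots had weight 0. Every ratio was set as Atg7F/F over Atg7+/+, and the dye-swapped arrays of a pair, being technical, were averaged, which left n = 2. Levels were per-channel signals after Aquantile scaling, averaged over dyes. Probes were kept if no spot was a non-uniformity outlier, which 36 probes failed, and if 1 genotype or both were well above background on all 4 arrays, which left 17109 of 41174 probes. The brightest probe stood for each gene name. All 12250 genes were fitted with limma's lmFit and eBayes against 0, two-sided, with Benjamini-Hochberg adjustment over all of them. Its degrees of freedom were 3.17, with 2.17 from the prior, and the code was tested on simulated data.

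The number of a replicate pairs the extracts by the hybridisation scheme, so the block is part of the main test. The deviations of extracts with one number from the mean of their genotype had a correlation of 0.18. Nothing states separate animals, so the p-values measure the spread between these extracts. The number of arrays limits the precision. The 36 genes and the other lists were chosen with earlier results of these data known. Every one of the 36 was to be named, with array values for the 6 of largest absolute mean ratio and the 6 of largest difference between pairs. Outside the 36, Irf3, Ifnb1, Ifng, Tmem173 and up to 2 genes at each end of each role were named; exceptions are stated, and 1 gene and 1 probe sequence are not reported here. Alternatives covered the offset, background, processed and deposited values, centring, filter, probe choice, prior, blocks and each replicate left out. Member names were checked through RefSeq accessions. Of the 60 probes, 47 matched a member, 2 another symbol and the others none. Probe coordinates are the files', on mm9, for which no annotation was used here, so exons are not stated.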

Additional observations from a re-analysis of the deposited data

How the results depend on the processing

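The precision is set by 2 pairs, and ratios of the dimmest genes are shrunk by the offset. The count of all genes called was 0 and became 10 with the pair as a random block (the replicate block fitted on 4 arrays), 8 higher and 2 lower, and 1 with no replicate block and unpaired extracts. Neither fit called an interferon-stimulated gene, nor did any other alternative that gave a test. The genes lower in pair 1 and higher in pair 2 were 10 or 11 under each alternative that kept the 26 genes. Outside median centring, 13.5% to 14.1% of all genes then had that order. With median centring the genes were 11, against 6.41% of all genes. They were 10 of 24 with the stricter filter (14.2% of all genes). Counting every probe gave 12 of 33 (13% of all probes), and no filter on dim probes 12 of 36 (9.67% of all genes). These counts, and those of the highest and lowest extract, were chosen after seeing the data. The highest level in the Atg7F/F extract of pair 2 was counted for 14 to 16 genes and the lowest in that of pair 1 for 13 to 16. In the main setting 34.2% and 22.4% of all genes had these orders. Shares of all genes under the other scalings were not computed, so the ranges are not set against them. The median ratio of the group was -0.11 without replicate 2 and 0.19 without replicate 1. Xaf1 changed sign to -0.080 without an offset, and ran from -0.92 to 1.20 with either replicate left out. Usp18 had 0.012 without an offset, 0.052 without background subtraction, 0.16 with the software's processed signals and with the deposited table, and 0.017 with median centring, and ran from -0.52 to 0.50 with either replicate left out. Ifi27 ran from -0.73 to 0.27. The cause of these changes was not tested. Gbp2, Isg15, Ifi204, Bst2 and Irf1 kept their sign under every alternative run. When a replicate was left out, Gbp2 lay between -2.15 and -0.33, Isg15 between 0.24 and 1.85 and Irf1 between 0.01 and 0.56. Such a value is the ratio of the remaining pair in the main fit. For Irf1 the dyes differed in sign in pair 1.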
